A study of Mus musculus with 9 samples.

Results

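Elastin, 2 fibrillins, 4 fibulins and 3 microfibril-associated proteins were followed through beige adipocyte differentiation of mouse preadipocytes. The 10 genes (Eln, Fbn1, Fbn2, Fbln1, Fbln2, Fbln5, Efemp2, Mfap2, Mfap4 and Mfap5) were chosen by name for what their proteins do, with earlier results of these data known. Each matched 1 row of a table of 55359 genes. All 10 passed the filter on low counts, which left 14714 genes for testing. The study measured ribosome footprints (Ribo-seq), the roughly ribosome-sized stretches of mRNA that a translating ribosome shields from nuclease. A footprint level thus depends both on how much of an mRNA there is and on how many ribosomes it carries, and RNA levels were not analysed here. Adipocyte precursors came from inguinal white adipose tissue, a depot under the skin, and were cultured without induction (day 0) or kept in differentiation for 4 days or for 8 days. Each of these 3 groups had 3 libraries. The medium of the first 2 days held dexamethasone, 3-isobutyl-1-methylxanthine, indomethacin, insulin, rosiglitazone and 3,3′,5-triiodo-L-thyronine, so both differentiated groups had met the same agents. After that the glucocorticoid, the phosphodiesterase inhibitor and indomethacin were left out. No genotype, strain, age or sex of the mice was used, and whether the 3 libraries of a group came from separate animals or cultures is not stated. The p-values therefore measure the spread between these libraries only.

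Elastic fibres give skin, vessels and fat their recoil. Fibrillins are secreted glycoproteins that polymerise into beaded microfibrils, and tropoelastin, the soluble product of Eln, is laid down on that scaffold and crosslinked by lysyl oxidases. Fibulins bridge the parts: fibulin-4 (Efemp2) and fibulin-5 (Fbln5) carry lysyl oxidases and tropoelastin to the microfibril, while the small glycoproteins of the Mfap genes sit on the microfibril itself. Microfibrils also hold latent TGF-beta in store, and fibroblast-like precursors of fat are among the cells that secrete these proteins.

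Libraries held 30823028 to 38994892 counts. Levels are given as CPM, counts scaled to library size after TMM normalisation, and changes as log2 fold changes ± SE, the first-named day minus the second. A gene was called when its adjusted p was under 0.05. Each adjusted p came from the quasi-likelihood test of edgeR with Benjamini-Hochberg adjustment over all tested genes. Coding lengths were not used, so levels of different genes were not ranked against each other. Replicate 2 of day 4 and replicate 3 of day 8 stood apart from the other libraries of their groups. On the first principal component of all tested genes, the day 4 libraries lay at 64.8, 12.8 and 65.4 and the day 8 libraries at 85.5, 85.8 and 62.1, against -125.9, -123.7 and -126.9 at day 0. Both libraries thus lay nearer to day 0 than the others of their day. For part of the results, values without these libraries are given as well. A result with no such second value may still depend on them.

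RefSeq promoter windows (build GRCm38.p6, 250 bases before to 50 bases after a transcript start) were used for 6 of the 10 genes. These were Fbn1, Fbln1, Fbln2, Fbln5, Efemp2 and Mfap2, with 11 windows in all, some of them overlapping. The first window of 4 genes is shown, since it is the sequence next to where their transcripts begin. Fbln1 and Efemp2 fell too, and their windows are not shown. Fbn1 lies at chr2:125506389-125506688 on the minus strand, Fbln2 at chr6:91212514-91212813 on the plus strand, Fbln5 at chr12:101819070-101819369 on the minus strand and Mfap2 at chr4:141010431-141010730 on the plus strand. Each is written 5′ to 3′ on the gene's strand. Capitals mark the GC box (GGGCGG, bound by Sp1-family factors) on either strand and, in Fbln5, also the core SMAD box (CAGAC).
Fbn1: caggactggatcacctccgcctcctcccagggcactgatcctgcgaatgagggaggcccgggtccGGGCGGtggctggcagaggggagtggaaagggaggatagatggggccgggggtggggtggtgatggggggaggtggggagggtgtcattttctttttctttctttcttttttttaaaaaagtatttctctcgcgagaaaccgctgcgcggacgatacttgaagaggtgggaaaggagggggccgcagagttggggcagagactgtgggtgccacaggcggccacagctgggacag
Fbln2: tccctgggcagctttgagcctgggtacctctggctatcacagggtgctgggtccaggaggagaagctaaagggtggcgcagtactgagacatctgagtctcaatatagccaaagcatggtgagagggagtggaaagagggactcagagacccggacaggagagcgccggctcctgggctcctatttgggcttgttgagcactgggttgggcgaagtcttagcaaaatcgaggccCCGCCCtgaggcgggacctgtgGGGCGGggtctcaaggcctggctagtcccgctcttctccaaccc
Fbln5: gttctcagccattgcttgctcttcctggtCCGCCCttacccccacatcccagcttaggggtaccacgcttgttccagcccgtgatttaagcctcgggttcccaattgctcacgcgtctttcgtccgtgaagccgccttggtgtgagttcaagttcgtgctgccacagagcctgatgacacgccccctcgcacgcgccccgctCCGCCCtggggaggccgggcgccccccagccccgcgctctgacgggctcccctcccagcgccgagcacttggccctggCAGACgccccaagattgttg
Mfap2: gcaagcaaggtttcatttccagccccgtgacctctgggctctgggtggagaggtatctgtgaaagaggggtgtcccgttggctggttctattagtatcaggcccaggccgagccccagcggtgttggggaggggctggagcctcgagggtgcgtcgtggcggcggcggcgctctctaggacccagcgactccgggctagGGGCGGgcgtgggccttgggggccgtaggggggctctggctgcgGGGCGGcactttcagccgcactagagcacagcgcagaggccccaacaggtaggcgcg
All 4 windows were rich in G and C, at 60.3% in Fbn1, 60.3% in Fbln2, 65.7% in Fbln5 and 68.0% in Mfap2, against a median of 52.7% over all 32851 mouse windows. Among the windows not shown, the second of Fbln5 (48.7%), the first of Fbln1 (51.7%) and the second of Mfap2 (52.0%) lay under that median. The rest of those not shown had 60.3 to 78.3%. A GC box on either strand occurred in 8 of the 11 windows, against 35.7% of all windows. In Fbn1 it began 185 bases before the start. In Fbln2 the boxes began 16 bases before and 7 bases after it. The SMAD box CAGAC occurred in 6 of the 11 windows, against 49.6% of all windows. The TEAD site GGAATG occurred in 1 of the 11, the second window of Mfap2, against 14.7% of all windows. The TATA box TATAAA (13.6% of all windows), the AP-1 site TGANTCA (7.81%) and the CArG box (1.63%) occurred in none of the 11. Both strands were searched, a window counted once per motif, and a match of letters is a description and not a binding site.

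Together the 10 genes took up 2.31%, 2.44% and 2.39% of all counts in the 3 day 0 libraries. The share was 0.419%, 1.30% and 0.451% at day 4 and 0.236%, 0.211% and 0.363% at day 8. Every differentiated library had a smaller share than every uninduced one. Fbln2 and Fbn1 held most of it: Fbln2 took 50.1 to 55.6% of the 10 genes' counts at day 0, 43.4 to 50.5% at day 4 and 47.7 to 52.9% at day 8, and Fbn1 took 25.4 to 38.4% over the 9 libraries.

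**Figure D1:**
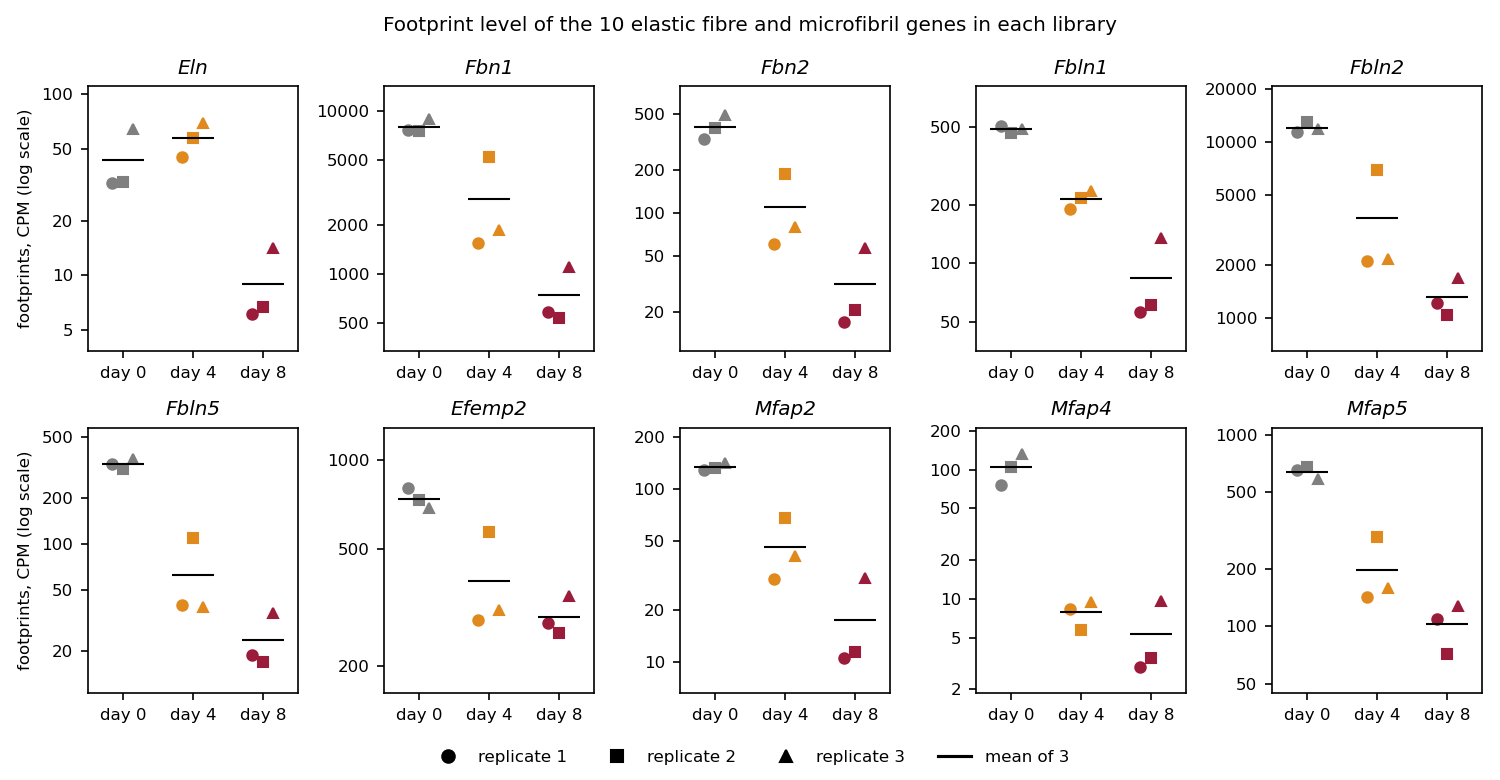
Footprint level of each gene (CPM, log scale, an axis of its own per gene) in the 3 libraries of day 0, day 4 and day 8. Points are single libraries, shaped by replicate number, and the horizontal bar is the mean of 3. Eln at day 4 lay at 44.9 to 69.2 CPM and overlapped day 0, while the other 9 genes lay lower at day 4 than in any day 0 library.

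Elastin did not move with the rest at day 4. Eln (ENSMUSG00000029675), the gene of tropoelastin, had 32.2, 32.5 and 64.5 CPM at day 0, 44.9, 56.9 and 69.2 CPM at day 4 and 6.06, 6.63 and 14.0 CPM at day 8. The day 4 and day 0 libraries overlapped, since replicate 3 of day 0 was higher than 2 of the day 4 libraries. Day 4 minus day 0 was 0.40 ± 0.35 (adjusted p = 0.349), with means of 57.0 ± 12.2 CPM at day 4 and 43.1 ± 18.6 CPM at day 0 (SD, n = 3 each). Over 18 alternative settings this difference ran between 0.24 and 0.82, and a single setting, the replicate number as a block, put it past the threshold (0.47, adjusted p = 0.033). At day 8 Eln was lower than in any other library of the series. The fall was 6.40-fold against day 4 (-2.68 ± 0.38, adjusted p = 0.00119) and 4.84-fold against day 0 (-2.28 ± 0.38, adjusted p = 0.000426). Counted from the largest fall, the day 8 against day 4 difference ranked 129 among the 14714 tested genes. A non-coding gene, Gm30003, overlaps Eln in the annotation, and the strand setting of the counting is not given in the sources used here, so reads of the pair cannot be told apart.

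Both fibrillins fell at each step. Fbn1 (ENSMUSG00000027204), the main fibrillin of postnatal microfibrils and the gene mutated in Marfan syndrome, had 7627, 7471 and 8840 CPM at day 0, 1557, 5221 and 1864 CPM at day 4 and 586.4, 537.5 and 1099 CPM at day 8. Replicate 2 of day 4 kept 65.4% of the day 0 mean, against 19.5% and 23.4% in the other day 4 libraries, and no groups overlapped. The fall was 2.77-fold at day 4 against day 0 (-1.47 ± 0.45, adjusted p = 0.0178) and 10.8-fold at day 8 against day 0 (-3.43 ± 0.48, adjusted p = 0.000158). The day 4 call for Fbn1 was lost without replicate 3 of day 0 (-1.39, adjusted p = 0.0503), replicate 1 of day 4 (-1.17, adjusted p = 0.0561) or replicate 3 of day 4 (-1.23, adjusted p = 0.0669). Without both libraries that stood apart it was -2.22 (adjusted p = 2.23e-08).

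Fbn2 (ENSMUSG00000024598) encodes the fibrillin that predominates in developing tissue. It had 332.5, 395.0 and 491.5 CPM at day 0, 59.9, 188.6 and 79.3 CPM at day 4 and 16.9, 20.5 and 56.5 CPM at day 8. The 3 days did not overlap, although replicate 3 of day 8 came close to the lowest day 4 library. Day 4 was 3.72-fold lower than day 0 (-1.89 ± 0.51, adjusted p = 0.00989), and -2.54 without both doubtful libraries. Day 8 was 13.0-fold lower than day 0 (-3.70 ± 0.56, adjusted p = 0.000231), and -4.44 without them. The non-coding gene Gm41741 overlaps Fbn2, with the same limit on strand as for Eln.

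Among the 4 fibulins of the set, Fbln2 and Fbln5 fell furthest at day 8 and Efemp2 least. Fbln2 (ENSMUSG00000064080), a fibulin that binds fibrillin-1 and basement membrane proteins, had 11290, 12938 and 11841 CPM at day 0, 2118, 6868 and 2155 CPM at day 4 and 1221, 1033 and 1690 CPM at day 8. Replicate 2 of day 4 was again the high one of its day, and the groups did not overlap. Fbln2 was 3.24-fold lower at day 4 than at day 0 (-1.69 ± 0.43, adjusted p = 0.00733; -2.49 without both doubtful libraries) and 9.14-fold lower at day 8 than at day 0 (-3.19 ± 0.46, adjusted p = 0.000178).

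Fbln5 (ENSMUSG00000021186), whose product binds tropoelastin and cell-surface integrins and whose loss in mice leaves elastic fibres disorganised, had 332.7, 308.6 and 355.3 CPM at day 0. Its levels were 39.6, 109.0 and 38.3 CPM at day 4 and 18.8, 16.8 and 35.1 CPM at day 8. Every day 8 library lay under every day 4 library, though replicate 3 of day 8 did so narrowly. The fall was 5.33-fold at day 4 (-2.41 ± 0.42, adjusted p = 0.000801; -3.09 without both doubtful libraries) and 14.1-fold at day 8 (-3.82 ± 0.45, adjusted p = 4.89e-05), both against day 0.

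Fbln1 (ENSMUSG00000006369), a fibulin found within the elastin core of fibres and bound to fibronectin, had 509.9, 466.0 and 492.4 CPM at day 0, 190.1, 216.3 and 235.8 CPM at day 4 and 56.2, 61.2 and 135.2 CPM at day 8. Its 3 day 4 libraries lay close together, at 38.8%, 44.2% and 48.2% of the day 0 mean, so replicate 2 of day 4 was no exception here. Day 4 was 2.29-fold lower than day 0 (-1.19 ± 0.29, adjusted p = 0.00553) and day 8 was 5.81-fold lower than day 0 (-2.54 ± 0.30, adjusted p = 5.37e-05).

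Efemp2 (ENSMUSG00000024909) encodes fibulin-4, which binds lysyl oxidase and without which mice form no proper elastic fibres. Its levels were 803.8, 730.6 and 689.3 CPM at day 0, 288.3, 572.3 and 310.8 CPM at day 4 and 279.8, 259.2 and 345.6 CPM at day 8. All 6 differentiated libraries lay below day 0, while days 4 and 8 overlapped. Efemp2 was 1.90-fold lower at day 4 than at day 0 (-0.92 ± 0.25, adjusted p = 0.00884) and 2.51-fold lower at day 8 than at day 0 (-1.33 ± 0.25, adjusted p = 0.000899). Day 8 minus day 4 was -0.41 ± 0.24 (adjusted p = 0.232), and between -0.58 and -0.02 over the alternative settings.

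Mfap4 fell early. Mfap4 (ENSMUSG00000042436), whose fibrinogen-like product binds tropoelastin and fibrillin, had 76.6, 104.4 and 131.3 CPM at day 0, 8.37, 5.72 and 9.41 CPM at day 4 and 2.96, 3.45 and 9.63 CPM at day 8. Nearly all of its fall was in place at day 4, when its libraries held 8.04%, 5.50% and 9.05% of the day 0 mean. Replicate 2 of day 4, the high library for the other falling genes except Fbln1, was the lowest of its day here. The fall was 13.3-fold at day 4 (-3.73 ± 0.43, adjusted p = 6.12e-05) and 19.5-fold at day 8 (-4.28 ± 0.45, adjusted p = 2.31e-05; -5.01 without replicate 3 of day 8), both against day 0. Counted from the largest fall, these differences ranked 171 and 148 among all tested genes. Day 8 minus day 4 was -0.55 ± 0.41 (adjusted p = 0.333). It was -1.29 (adjusted p = 0.0101) without replicate 3 of day 8, and -1.47 (adjusted p = 0.000715) without replicate 2 of day 4 as well. The day 4 and day 8 libraries held 106 to 344 raw counts of Mfap4.

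Mfap2 (ENSMUSG00000060572), the glycoprotein MAGP-1 of nearly all microfibrils, had 128.5, 132.7 and 140.3 CPM at day 0, 30.0, 68.1 and 41.1 CPM at day 4 and 10.5, 11.4 and 30.7 CPM at day 8. Days 4 and 8 overlapped slightly, through replicate 3 of day 8 and replicate 1 of day 4. Day 4 was 2.89-fold lower than day 0 (-1.53 ± 0.41, adjusted p = 0.0088) and day 8 was 7.63-fold lower than day 0 (-2.93 ± 0.43, adjusted p = 0.000196; -3.60 without both doubtful libraries).

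Mfap5 (ENSMUSG00000030116), the related MAGP-2, had 651.2, 676.3 and 590.0 CPM at day 0, 141.7, 290.9 and 159.5 CPM at day 4 and 109.0, 71.7 and 127.6 CPM at day 8. No groups overlapped, and replicate 2 of day 4 was the high library of its day. The fall was 3.24-fold at day 4 (-1.70 ± 0.29, adjusted p = 0.000655) and 6.22-fold at day 8 (-2.64 ± 0.30, adjusted p = 3.71e-05), both against day 0.

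**Figure D2:**
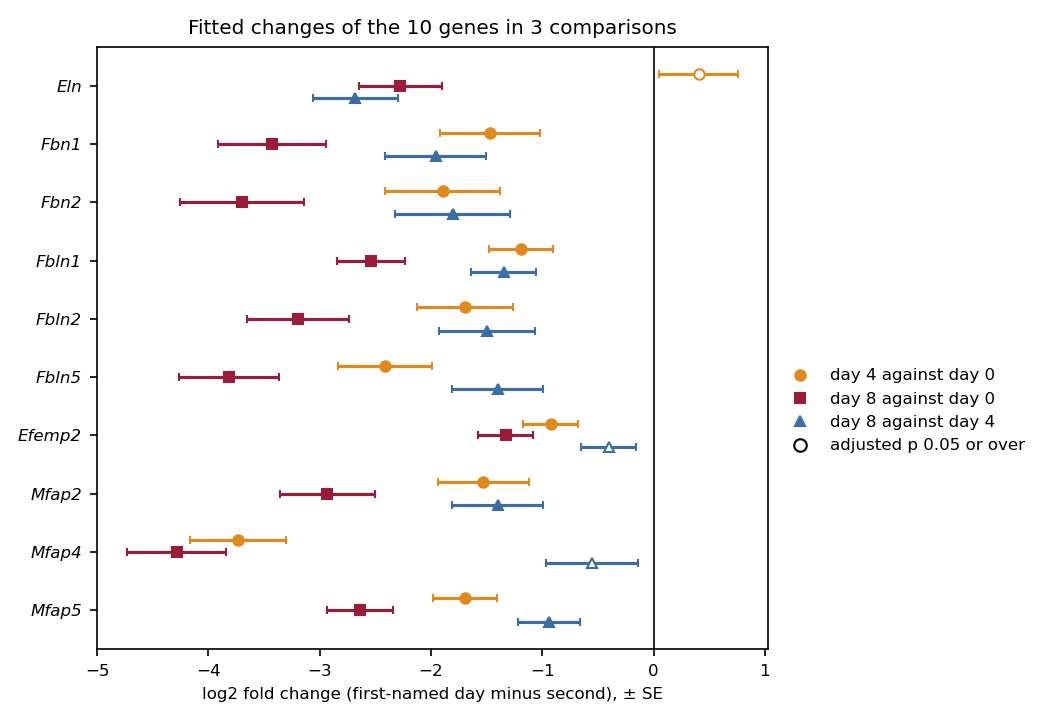
Fitted log2 fold changes (horizontal axis, ± SE) of the 10 genes for day 4 against day 0, day 8 against day 0 and day 8 against day 4. Open symbols had an adjusted p of 0.05 or over: Eln at day 4 against day 0, and Efemp2 and Mfap4 at day 8 against day 4.

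At day 4 against day 0, 9 of the 10 genes were lower and 0 higher, where 28.4% of all tested genes were lower and 29.8% higher. The 10 genes had a median log2 fold change of -1.61, beside -0.02 over all tested genes. The count was 9 without both libraries that stood apart and 8 to 9 over all alternatives. At day 8 against day 0, all 10 were lower, where 33.5% of all genes were lower and 34.2% higher, with a median of -3.06 beside -0.01. That count was 10 in each of the 18 alternatives. Both comparisons share the day 0 libraries, and the genes were chosen with earlier results of these data known. Fewer cells that make these proteins and less mRNA or translation per cell cannot be told apart in such bulk libraries.

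At day 8 against day 4, 8 of the 10 were lower and 0 higher, where 17.1% of all genes were lower and 14.7% higher, and the median was -1.40 beside -0.02. The falls were 3.89-fold for Fbn1 (-1.96 ± 0.46, adjusted p = 0.0111), 3.49-fold for Fbn2 (-1.80 ± 0.52, adjusted p = 0.0252), 2.54-fold for Fbln1 (-1.35 ± 0.29, adjusted p = 0.00795) and 2.82-fold for Fbln2 (-1.50 ± 0.43, adjusted p = 0.026). Fbln5 and Mfap2 were each 2.64-fold lower (-1.40 ± 0.41 for both, adjusted p = 0.0277 and 0.0272), and Mfap5 1.92-fold lower (-0.94 ± 0.28, adjusted p = 0.0298). Without replicate 2 of day 4 the log2 fold changes were smaller, at -1.21 for Fbn1, -1.16 for Fbn2, -0.70 for Fbln2 and -0.73 for Fbln5. Those of Mfap2 (-1.02) and Mfap5 (-0.55) were smaller too. Fbn2, Fbln5, Mfap2 and Mfap5 were then not called. Without replicate 3 of day 8 the log2 fold changes were larger for Fbn2 (-2.55) and Mfap2 (-2.08). The count of 8, too, rests on single libraries. It was 2 without replicate 1 of day 8, 3 without replicate 2 of day 8, 4 without replicate 2 of day 4, and 9 without replicate 3 of day 8 or without both libraries that stood apart. Eln and Fbln1 were the genes that passed under every alternative, with adjusted p-values up to 0.00769 for Eln and 0.0343 for Fbln1.

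**Figure D3:**
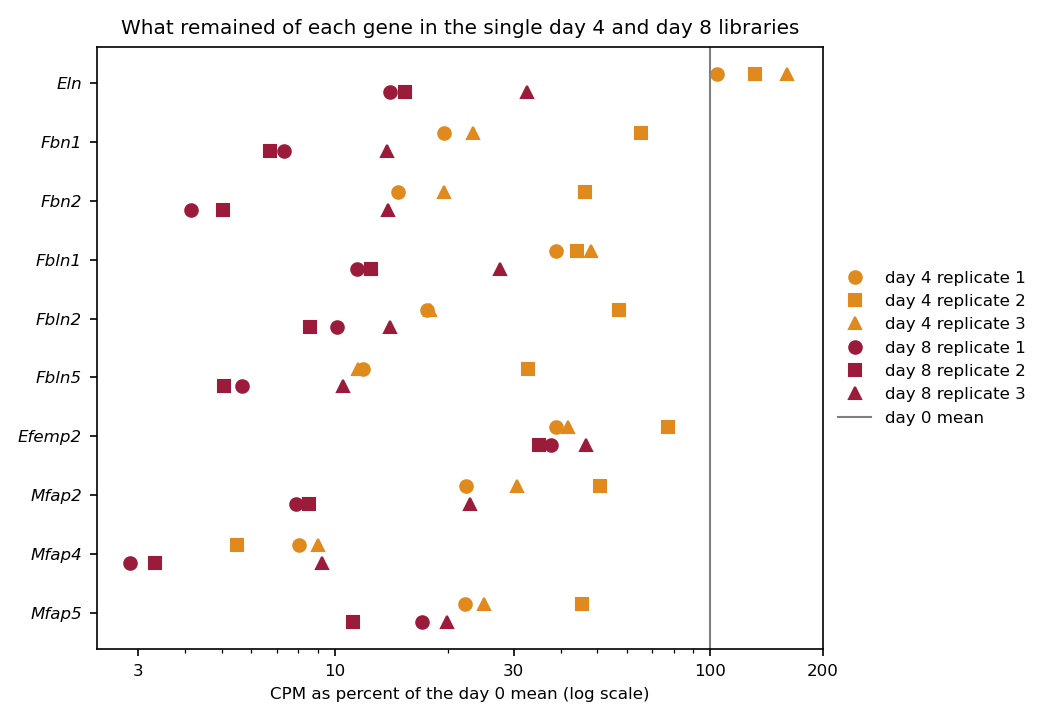
Level of each gene in the single day 4 and day 8 libraries as a percent of its day 0 mean (horizontal axis, log scale; the line marks 100%). At day 4, replicate 2 lay highest for 7 genes (65.4% for Fbn1) but lowest for Mfap4 (5.50%), and Eln lay at 104.2 to 160.8%; at day 8, Efemp2 lay at 35.0 to 46.6% and Mfap4 at 2.84 to 9.25%.

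The makeup of the set shifted as it shrank. Counts of the other genes were set against Fbn1 in the same library, which takes out library size and, over days, gene length. The ratios themselves mix lengths, so only their change over the days is read, and no test was run on them. Efemp2 had 10.5, 9.78 and 7.80 counts per 100 Fbn1 counts at day 0, 18.5, 11.0 and 16.7 at day 4 and 47.7, 48.2 and 31.4 at day 8. The 3 days did not overlap, and fibulin-4 stood at 9.75 to 12.8% of the 10 genes' counts at day 8, against 2.92 to 3.69% at day 0. Eln had 0.422, 0.435 and 0.730 counts per 100 Fbn1 counts at day 0, 2.88, 1.09 and 3.71 at day 4 and 1.03, 1.23 and 1.28 at day 8. Elastin thus stood highest relative to fibrillin-1 at day 4 in 2 of 3 libraries, with replicate 2 at the level of day 8.

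Fbln5 went the other way, with 4.36, 4.13 and 4.02 counts per 100 Fbn1 counts at day 0, 2.54, 2.09 and 2.06 at day 4 and 3.21, 3.13 and 3.19 at day 8. Its 9 values fell into 3 ranges that did not overlap, lowest at day 4. Mfap4 had 1.00 to 1.49 at day 0, 0.110 to 0.538 at day 4 and 0.504 to 0.876 at day 8. Mfap5 lay at 6.67 to 9.05 at day 0, 5.57 to 9.11 at day 4 and 11.6 to 18.6 at day 8, and thus above its earlier ratios at day 8. Fbln2 stayed between 115.6 and 208.3 and Fbn2 between 2.87 and 5.56, and for both the day 8 and day 0 ratios overlapped.

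**Figure D4:**
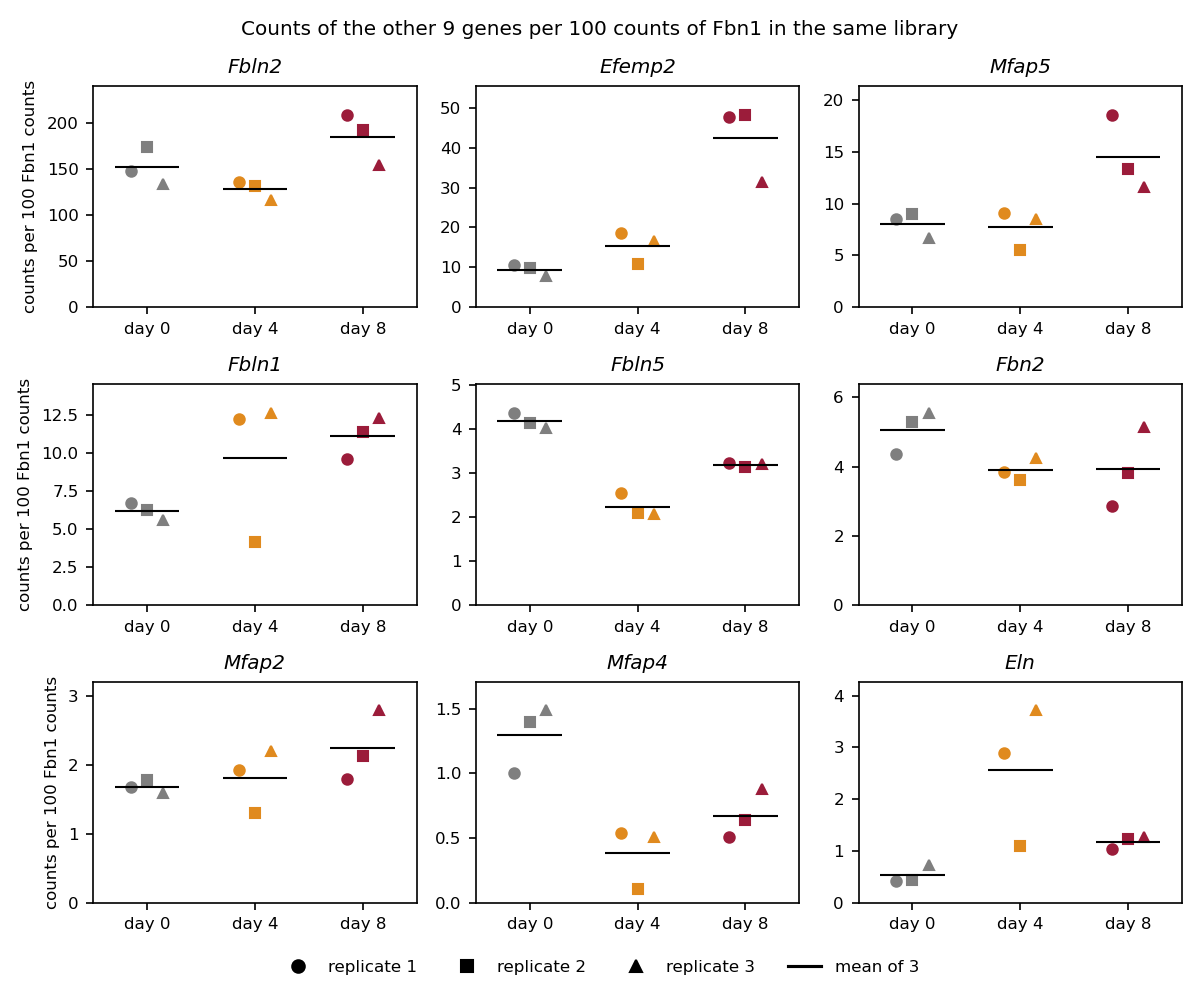
Raw counts of each of the other 9 genes per 100 counts of Fbn1 in the same library (vertical axis, linear from 0, one scale per gene), by day. Points are libraries and bars are means of 3. Efemp2 lay at 31.4 to 48.2 at day 8, above all earlier libraries, and Eln reached 3.71 in a day 4 library.

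Genes whose levels ran most nearly parallel to each one were found over the 9 libraries among 8359 genes with a mean of at least 10 CPM, by Pearson r of log2 CPM. The libraries share the 3 days, so high values were common and no test was made. Eln was nearest to B3glct (r = 0.991), a glucosyltransferase that acts on thrombospondin type 1 repeats, and then to Trip12 (0.974) and Kansl1 (0.969). Fbn1 was nearest to Twist1 (0.999), a mesenchymal transcription factor, Cdh2 (0.998), the gene of N-cadherin, and Calhm2 (0.997). Fbn2 had Slc9a9 (0.998), Mfap2 (0.996) and Il3ra (0.996) as its nearest genes. Mfap2, in turn, had Slc9a9 (0.997), Exoc1 (0.997) and the cell cycle kinase Cdk1 (0.997).

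Fbln1 ran with Il11ra1 (0.995), Nsd3 (0.993) and Ogn (0.991), the gene of the matrix proteoglycan osteoglycin. Fbln2 ran with Myof (0.999), Ripk3 (0.997) and Adam9 (0.997), and Fbln5 with Ccdc102a (0.999), Pcdhga7 (0.998) and Kirrel (0.998). Efemp2 was nearest to Anxa3 (0.998), Ptgr1 (0.993) and Sh3bgrl3 (0.993). Mfap4 was nearest to Pde4b (0.994), which encodes a cyclic AMP phosphodiesterase, Podn (0.991) and Adamtsl1 (0.989), and Mfap5 to Pcdh11x (0.996), Rin1 (0.996) and Sdc2 (0.995). Within the set, Eln was the least alike: its r with the other 9 genes ran from 0.517 to 0.806, while the other 9 had 0.855 to 0.996 among themselves.

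Most enzymes and carriers that build elastic fibres were lower at day 8. Of 22 crosslinking and assembly genes, 3 were higher and 11 lower at day 4 against day 0 (median -0.71), and 0 were higher and 17 lower at day 8 against day 0 (median -1.41). Over all tested genes, 29.8% were higher and 28.4% lower at day 4 and 34.2% higher and 33.5% lower at day 8, so the share of assembly genes higher at day 4 lay under that of all genes. Lox, the lysyl oxidase that crosslinks tropoelastin and collagen, had 4009, 4374 and 4136 CPM at day 0, 2791, 5345 and 2862 CPM at day 4 and 1521, 1568 and 1911 CPM at day 8. Its day 4 libraries spanned those of day 0 through replicate 2 alone, while replicates 1 and 3 of day 4 lay under every day 0 library. With all libraries, day 4 minus day 0 was -0.19 ± 0.25 (adjusted p = 0.541). Day 8 was lower than day 0 (-1.32 ± 0.25, adjusted p = 0.00106). Loxl1, the family member tied to elastin renewal, differed by -0.08 ± 0.11 at day 4 (adjusted p = 0.556) and was lower at day 8 (-0.46 ± 0.11, adjusted p = 0.0046), both against day 0. Ltbp3 and Ltbp1, which tether latent TGF-beta to microfibrils, were lower at day 8 than at day 0 (-1.27 ± 0.11, adjusted p = 7.9e-06, and -2.43 ± 0.24, adjusted p = 1.8e-05). So was Fkbp10, a chaperone of collagen and tropoelastin in the endoplasmic reticulum (-2.84 ± 0.28, adjusted p = 1.75e-05).

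The 3 assembly genes that rose at day 4 are named after their values were seen. Ltbp4, which helps fibulin-5 deposit elastin, had 22.0, 21.9 and 22.0 CPM at day 0, 51.8, 35.6 and 45.6 CPM at day 4 and 11.3, 17.0 and 17.3 CPM at day 8. All its day 4 libraries lay above all others (day 4 against day 0: 1.01 ± 0.18, adjusted p = 0.000904). Adamtsl4, a fibrillin-1 binding protein, was also higher at day 4 than at day 0 (1.78 ± 0.37, adjusted p = 0.00216), as was Adamtsl2, which binds fibrillin-1 and Ltbp1 (2.12 ± 0.50, adjusted p = 0.00474). All 3 were lower at day 8 than at day 4, with log2 fold changes of -1.54 for Ltbp4, -2.31 for Adamtsl4 and -2.99 for Adamtsl2. In that last comparison 15 of the 22 assembly genes were lower and 0 higher, where 17.1% of all genes were lower, and the count of lower ones was 8 without replicate 1 or without replicate 2 of day 8. Without both libraries that stood apart, 17 of the 22 were lower at day 4 than at day 0.

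Of 11 proteases that cut elastin or microfibrils and their inhibitors, 1 was higher and 4 lower at day 4, and 1 was higher and 8 lower at day 8, both against day 0 (medians -1.08 and -2.33). The share lower at day 4 was near the 28.4% of all genes and the share lower at day 8 above the 33.5% of all genes, while the shares higher lay under the 29.8% and 34.2% of all genes. Without replicate 2 of day 4, 8 were lower at day 4. Mmp14, a membrane-bound metalloprotease, was lower than at day 0 both at day 4 (-2.23 ± 0.42, adjusted p = 0.00121) and at day 8 (-3.19 ± 0.43, adjusted p = 0.00012). Timp3 (-4.12 ± 0.47) and, chosen after its values were seen, Timp1 (-1.76 ± 0.35) and Mmp12 (-5.52 ± 1.13, on 0.08 CPM at day 4 against 3.61 CPM at day 0) were the others lower at day 4. The inhibitors Timp3, which is bound to the matrix, and Timp2 were lower at day 8 (-4.14 ± 0.47, adjusted p = 4.21e-05, and -2.68 ± 0.38, adjusted p = 0.000157). The gene that rose was Cst3, the cathepsin inhibitor cystatin C, with 946.6 ± 74.0 CPM at day 4 and 843.9 ± 91.4 CPM at day 8, against 463.7 ± 37.6 CPM at day 0 (SD, n = 3 each; adjusted p = 0.00012 and 0.000263). Against day 4, day 8 had 1 of these 11 genes higher (Mmp12) and 3 lower (Mmp2, Ctsk and Timp2), beside 14.7% higher and 17.1% lower over all genes. Apart from Timp2 these are named after their values were seen.

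Of 10 integrin and elastin receptor genes, 9 were tested, since Itgb6 had 4 counts in all. At day 4 and again at day 8, 7 of the 9 were lower than at day 0 and 0 higher (medians -1.10 and -1.71), beside 28.4% of all genes lower at day 4 and 33.5% at day 8. Integrin alpha-v (Itgav), beta-5 (Itgb5) and beta-1 (Itgb1), subunits of receptors that bind fibrillin-1 or fibulin-5, were lower at day 8 than at day 0 (-1.81, -2.40 and -1.49 on the log2 scale, adjusted p = 4.48e-05, 1.96e-05 and 0.000105). They were already lower at day 4 than at day 0 (-1.76, -2.18 and -1.10). At day 8 against day 4, 1 of the 9 was lower (Itga5, named after its value was seen: -0.97 ± 0.32, adjusted p = 0.0425), a smaller share than the 17.1% of all genes, and 0 without replicate 1 or 2 of day 8 or any day 0 library.

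Of 14 TGF-beta ligands, receptors and targets, 11 were lower and 0 higher at day 4, and 12 were lower and 1 higher at day 8, both against day 0 (medians -1.22 and -1.06). Over all genes, 28.4% were lower at day 4 and 33.5% at day 8. The gene higher at day 8 was Smad2, a signal carrier named after its value was seen (0.36 ± 0.12, adjusted p = 0.0203), and that count was 0 without replicate 2 of day 0 or of day 8. Tgfb3, a ligand that latent binding proteins hold on microfibrils, was lower at day 8 (-3.07 ± 0.20, adjusted p = 1.67e-06), as were the signal carrier Smad3 (-1.47 ± 0.10, adjusted p = 2.28e-06) and the receptor Tgfbr2 (-1.47 ± 0.15, adjusted p = 2.06e-05). Against day 4, day 8 had 4 of the 14 higher and 3 lower (Tgfb3, Tgfbr2 and, named after its value was seen, Tgfbr3), beside 14.7% higher and 17.1% lower over all genes. The list median for this step was 0.10, beside -0.02 over all tested genes. Among the higher were Tgfb1 (0.34), Smad7 (0.92) and Skil (0.52), named after their values were seen. The higher count was 2 without replicate 3 of day 4 or replicate 1 or 2 of day 8.

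**Figure D5:**
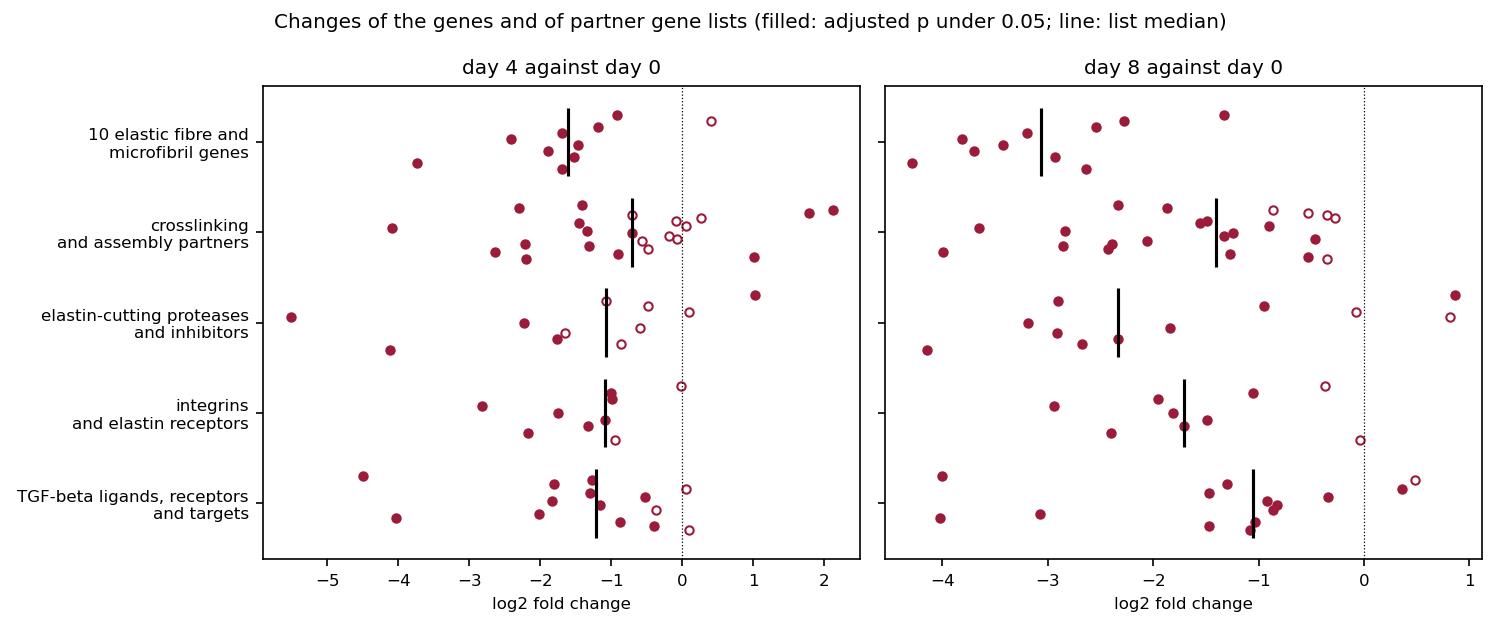
Log2 fold changes (horizontal axes) of the 10 genes and of 4 partner lists for day 4 and for day 8 against day 0. Each point is a gene, filled where its adjusted p was under 0.05, and the line is the list's median, which at day 8 was -3.06 for the 10 genes and -1.41 for the 22 crosslinking and assembly genes.

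Markers of the cell types the cultures could hold moved over the same days. Summed over Adipoq, Fabp4, Plin1, Cidec and Pparg, fat cell markers held 210.8 to 275.2 CPM at day 0, 31880 to 49680 CPM at day 4 and 47820 to 51170 CPM at day 8, with 5 of 5 higher at both days than at day 0, where 29.8% and 34.2% of all genes were higher. Precursor markers (Pdgfra, Pdgfrb, Dpp4, Ly6a and Cd34) summed to 2388 to 2534 CPM at day 0, 789.6, 1792 and 902.2 CPM at day 4 and 521.5 to 714.9 CPM at day 8. Against day 0, 2 of these 5 were higher (Ly6a and Cd34) and 2 lower (Pdgfrb and Dpp4) at day 4, and 0 were higher and 2 lower (Pdgfra and Pdgfrb) at day 8. Over all genes 28.4% were lower at day 4 and 33.5% at day 8, so the counts of lower precursor markers were near those shares. At day 0 Pdgfra and Pdgfrb made up most of the precursor sum. Dpp4 then had 1.25 to 2.29 CPM and Cd34 2.44 to 8.33 CPM. The differentiated cultures carried fat cell markers. Replicate 2 of day 4, where the 10 genes summed to 13600 CPM against 4477 and 4962 CPM in the others, had the highest precursor and the lowest fat cell sum of its day.

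Smooth muscle and pericyte markers, whose cells also lay down elastic fibres, summed to 3874 to 5844 CPM at day 0, 80.3 to 390.4 CPM at day 4 and 237.2 to 412.4 CPM at day 8. Against day 0, 4 of 7 were lower (Acta2, Tagln, Cnn1 and Myh11) and 0 higher at day 4, and these and Myocd were lower and 1 (Des) higher at day 8. At day 0 Acta2 (2612 to 4082 CPM) and Tagln (1129 to 1551 CPM) made up most of the sum. Cnn1 then had 109 to 171 CPM and Myh11 20.0 to 32.7 CPM. Des had 3.23 to 7.70 CPM, Myocd 0.66 to 0.87 CPM and Rgs5 0.30 to 0.49 CPM. Endothelial markers summed to 3.39 to 27.5 CPM over all 9 libraries, with 1 of 5 lower at day 4 and 4 of 5 lower at day 8 against day 0, while macrophage markers lay at 17.4 to 93.1 CPM, with 0 and 2 of 5 lower. Over all genes 28.4% were lower at day 4 and 33.5% at day 8, so the endothelial count at day 4 and both macrophage counts were near or under the share of all genes. Mesothelial markers summed to 28.2 to 88.3 CPM and Schwann cell markers to 0.385 to 1.51 CPM, with Upk3b, Wt1 and Lrrn4 too low to test. The part of these shifts in the falls of the 10 genes was not tested.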

How the data were processed

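Ribosome footprints of 9 mouse libraries (day 0, 4 and 8, 3 each) were analysed from 1 table. The deposited values are raw counts per Ensembl gene. Per the submitters' processing notes, the tools were cutadapt, HISAT2 and featureCounts and the build GRCm39; their versions and the strand setting are not stated. Gene names are those of the table, and groups are those of the labels. Genes were filtered with filterByExpr (minimum count 10), leaving 14714 genes with at least 99.95% of each library's counts. Counts were scaled by TMM and tested with edgeR 4.0.16 (quasi-likelihood, group as the only term, 9 libraries in 1 fit) in R 4.3.3, with Benjamini-Hochberg adjustment over all 14714 genes. Log2 CPM for correlations used a prior count of 2. For each comparison, counts of 14714 genes were simulated with 100 genes changed 2-fold and 100 changed 4-fold. The 4-fold changes were recovered in 91%, 86% and 87% of genes and the 2-fold changes in 51%, 51% and 53% (day 4 against day 0, day 8 against day 0, day 8 against day 4). Of the genes called at an adjusted p under 0.05, 10.1%, 11.0% and 4.11% were unchanged ones. Far more genes were called in the data, so these rates need not carry over.

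The 10 genes and all lists were chosen with earlier results of these data known. All 10 genes are described. Of each partner list, the 3 genes with the smallest adjusted p at day 8 against day 0 and the gene with the highest mean count are named, plus Loxl1; a gene of the TGF-beta list that this rule names is not reported here. For each of the 10, the 3 genes with the highest r are named. Alternatives were RLE, upper quartile and library-total scaling, no filter, DESeq2 1.42.0, limma-voom (limma 3.58.1), a fit of the compared groups alone, a replicate block and leaving out each library. Leaving out the 2 libraries that stood apart was added after seeing the data. Levels per coding length were planned and not computed, since coding lengths were not at hand. Same-numbered libraries of different days correlated at -0.200 to 0.188 in their deviations from the group means, and differently numbered ones at -0.296 to 0.314. Between day 0 and day 8 the same-numbered pairs had 0.071 to 0.121 and the others -0.103 to 0. Whether the numbers pair libraries was thus not settled. No 2 libraries were duplicates: chi-square per degree of freedom was 14.6 to 234.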

Additional observations from a re-analysis of the deposited data

How the results depend on the processing

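Of 540 log2 fold changes of the 10 genes under alternatives (18 for each gene and comparison), 510 kept direction and side of the threshold, 27 kept direction but missed it, 3 newly passed it and 0 reversed. All 10 were lower at day 8 than at day 0 in every alternative. At day 4 against day 0, leaving out 1 library gave 8 to 9 lower. The replicate block, for numbers that mark no known pairing, gave 1 of the 10 higher (Eln). At day 8 against day 4, 8 were lower, 3 with only the compared groups, 5 with the block and 2 to 9 with 1 library left out.

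In the partner lists at day 4 against day 0, 7 proteases and inhibitors were lower with DESeq2, 9 without both doubtful libraries and 4 to 8 with 1 library left out. Without both doubtful libraries, 17 assembly genes were lower. At day 8 against day 0, 1 to 2 proteases and inhibitors were higher with 1 library left out. TGF-beta genes higher numbered 0 with upper-quartile scaling, 2 without both and 0 to 1 with 1 library left out.

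At day 8 against day 4, 1 assembly gene was higher with no filter, 1 with DESeq2, 1 without both doubtful libraries and 0 to 2 with 1 library left out. Lower were 9 with only the compared groups and 8 to 15 with 1 library left out. Proteases and inhibitors had 0 higher with limma-voom, and 5 lower without both or 1 to 5 with 1 library left out. Integrins lower were 0 with library totals, limma-voom, only the compared groups and the block, 3 without both and 0 to 1 with 1 library left out. TGF-beta genes higher were 2 to 5 with 1 library left out. Over all genes, 2159 were higher, 3273 with library totals and 1244 to 2291 with 1 library left out, and 2517 were lower, 1666 with only the compared groups and 1440 to 2608 with 1 library left out. Where fewer libraries entered, fewer degrees of freedom were left; other causes were not tested.

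Library-total scaling shifted the median of all genes by -0.15 at day 4 against day 0 and 0.14 at day 8 against day 4, and upper-quartile scaling by -0.13 at day 4 and -0.11 at day 8 against day 0. Of called genes, 51.2% were higher at day 4 against day 0, and 41.9% with library totals, and 46.2% at day 8 against day 4, and 65.9% with library totals. The called falls of the 10 genes were larger than these shifts. Even so, the day 8 against day 4 call of Mfap5 was lost with library totals (-0.81, adjusted p = 0.0543).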
